A study of Mus musculus with 21 samples.

Results

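The genes described here are 44 genes of macrophages and other myeloid leukocytes, chosen by name. They were measured among 19937 genes that had a probe set annotated to a single gene on an Affymetrix whole-transcript array. Of the 44 genes, 4 (Lyve1, Folr2, Cd163 and Timd4) were set apart as markers of tissue-resident macrophages. The other 40 are called pan-myeloid here. The name does not mean that each is expressed in all myeloid cells, and resident macrophages express some of them, such as Pf4. Each of the 44 was read by 1 probe set. In all, 37 reached a log2 value of 5 on at least 3 arrays and were tested, 3 of them resident and 34 pan-myeloid. The 7 that did not reach it, Timd4, Msr1, Clec7a, Cd84, Ms4a7, Ncf4 and Aif1, are described without a test in the main fit.

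The 21 arrays held total RNA of mouse left ventricle in 6 groups. MerCreMer mice, written Tg(αMHC-MerCreMer) in the labels, carry a Cre recombinase flanked by mutated oestrogen receptor domains under the α-myosin heavy chain promoter, which is active in cardiomyocytes, and tamoxifen lets this Cre enter the nucleus. The transgenic mice fell into 4 groups of 3 arrays: tamoxifen (40 mg/kg, into the peritoneum) or the matching control injection, given either once or daily for 4 days. Among wild-type mice, 3 arrays came after the 4-day tamoxifen course and 6 after the 4-day control course. Hearts were taken 4 days after the last injection from mice of 9 to 13 weeks. There were 1 male and 2 females in every group of 3, and 3 males and 3 females among the 6 wild-type controls. MerCreMer controls carried the transgene and received no tamoxifen. No floxed allele is named in the labels. In the MerCreMer 4 tamoxifen group replicate 1 was the male, so replicates 2 and 3 were both female.

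Macrophages of the heart take up dead cells and debris, and a resident population that renews itself locally is marked by the hyaluronan receptor Lyve1, the folate receptor Folr2, the haemoglobin scavenger receptor Cd163 and the phosphatidylserine receptor Timd4. Monocytes that arrive from the blood after injury share many of the pan-myeloid genes but carry the chemokine receptor Ccr2. In both populations the transcription factor PU.1, encoded by Spi1, and the CSF1 receptor control the lineage. The tissue label was checked against 12 cardiomyocyte markers, and all 12 passed the filter on low values. These 12 do not separate ventricle from atrium, and the atrial myosin light chains varied within and between groups. Myl7 was at 8.60, 8.11 and 8.43 on the MerCreMer 4 control arrays and at 4.07, 4.72 and 5.04 on the MerCreMer 4 tamoxifen arrays, with 4.22 to 7.02 among the wild-type controls. In whole ventricle RNA, more cells of a type and more RNA per cell cannot be told apart.

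The 3 arrays of the MerCreMer 4 tamoxifen group stood apart from one another. They correlated at 0.9182 to 0.9742, whereas the lowest correlation within any other group was 0.9824. The median SD of the 37 tested genes was 0.828 log2 units in this group and 0.112 to 0.133 in the other 5 groups. Over all 11384 genes tested the median SD was 0.217 in this group and 0.079 to 0.104 in the others. Nothing in the labels says that each replicate was a separate animal, so the p values below measure the spread between these samples. All changes are on the log2 scale, where 1 unit is a factor of 2, and are given ± SE from limma. A gene is said to rise or fall where its limma p, adjusted by Benjamini-Hochberg over all 11384 genes, was under 0.05.

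The first question was whether 4 tamoxifen injections changed these genes in hearts with the transgene. Of the 37 genes tested, 34 rose in MerCreMer hearts after 4 tamoxifen injections against 4 control injections, and 0 fell. Over all genes tested, 13.9% rose and 9.41% fell, 23.3% in all. All 37 changes were above 0, with a median of 0.98 and a range of 0.15 to 1.62, and the median over all genes was 0.01. In 31 of the 37 every tamoxifen array lay above every MerCreMer 4 control array, which held for 16.6% of all genes. Cd14 reached a log2 value of 5 on these 3 tamoxifen arrays and on 1 of the other 18, so it passed the filter through the group in which it was high and its change is no support. Without it 33 of 36 rose, with a median of 0.97. The 3 that did not pass the test were the lectin Cd33 (0.15, adjusted p = 0.413), the pore-forming protein Mpeg1 (0.72, adjusted p = 0.223) and the oxidase subunit Cybb (0.73, adjusted p = 0.053). The calls rest on the spread pooled over all 21 arrays. With the 6 compared arrays alone 0 of the 37 genes passed by limma, although 20 had an unadjusted p under 0.05 and the lowest adjusted p was 0.0625. With array weights, which gave replicates 1 and 3 of the tamoxifen group weights of 0.241 and 0.0702 and replicate 2 a weight of 1.22, 15 passed and the median was 0.42; with female arrays only, 13 passed.

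**Figure D1:**
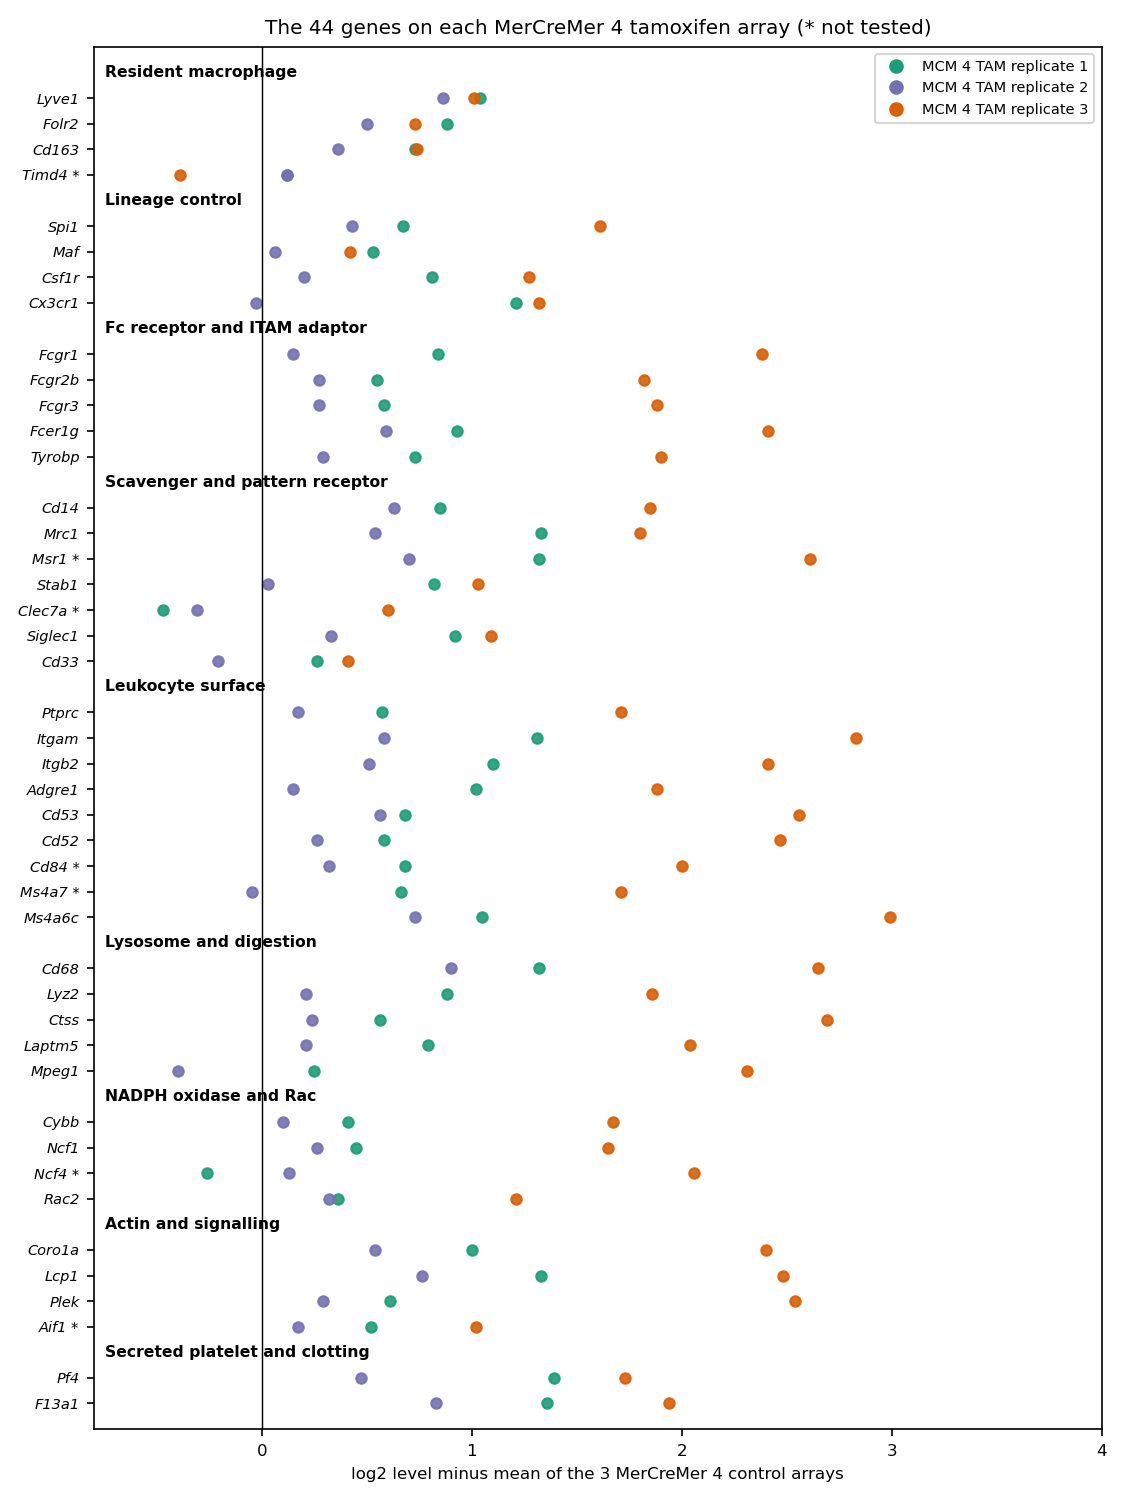
Each of the 44 genes (rows, by role) on each of the 3 MerCreMer 4 tamoxifen arrays, as the log2 level minus the mean of the 3 MerCreMer 4 control arrays (x axis, log2 units). Replicate 3 is highest for 34 of the 37 tested genes and replicate 2 lowest for all 37, while the 3 arrays lie close together for Lyve1, Folr2 and Cd163.

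All 3 resident genes that were tested rose. Lyve1, the hyaluronan receptor, was at 6.61, 6.73 and 6.62 on the MerCreMer 4 control arrays and at 7.69, 7.52 and 7.66 on the 4 tamoxifen arrays. The 3 tamoxifen arrays were nearly level with each other and above all 18 other arrays, the highest of which was a wild-type tamoxifen array at 7.47. The change was 0.97 ± 0.174 (adjusted p = 0.000782). Folr2, the folate receptor, read 6.37, 5.81 and 6.18 on the controls and 7.0, 6.62 and 6.85 after tamoxifen. Its groups did not overlap, and it rose by 0.70 ± 0.148 (adjusted p = 0.00282). Cd163, the haemoglobin scavenger receptor, read 5.72, 5.70 and 5.59 on the controls and 6.40, 6.02 and 6.40 after tamoxifen, a change of 0.61 ± 0.184 (adjusted p = 0.0245). These Cd163 levels were above the MerCreMer controls but within the range of the wild-type controls, whose lowest, median and highest values were 5.78, 5.99 and 6.61. Timd4, which binds phosphatidylserine on dying cells, stayed under 5 on all 21 arrays. It read 4.60, 4.61 and 4.10 after tamoxifen and 4.56, 4.32 and 4.58 on the controls, and in a fit without the filter its change was -0.05 (adjusted p = 0.88).

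The promoter of Folr2 is shown as that of a resident gene, to be set beside those of pan-myeloid genes further on. It is the 250 bases before the first of 2 annotated starts, chr7:101857191-101857440 on the minus strand of build GRCm38.p6, from RefSeq. It is in lower case throughout because it holds no match, on either strand, to GAGGAA, a form of the PU.1 motif. Other forms of the motif, among them shorter ones such as GGAA, which these letters do hold, were not searched for. Lyve1 had no promoter in the table used.
Folr2: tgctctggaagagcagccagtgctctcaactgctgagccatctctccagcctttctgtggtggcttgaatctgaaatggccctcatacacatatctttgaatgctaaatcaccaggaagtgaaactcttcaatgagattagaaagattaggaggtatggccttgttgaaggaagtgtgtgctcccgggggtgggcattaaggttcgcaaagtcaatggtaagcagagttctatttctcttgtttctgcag

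As sets, the resident and pan-myeloid genes tested differed in how even they were over the 3 tamoxifen arrays. For the 34 pan-myeloid genes tested the median level minus the control mean was 0.81 on replicate 1, 0.28 on replicate 2 and 1.88 on replicate 3. For the 3 resident genes it was 0.88, 0.50 and 0.74. Replicate 3 was the highest array for 33 of the 34 pan-myeloid genes and for 1 of the 3 resident genes, and for 35% of all genes tested. Replicate 2 was the lowest for all 37, and for 28.7% of all genes. The gap from replicate 2 to replicate 3 ranged from 0.35 to 2.71 with a median of 1.60 in the pan-myeloid genes and from 0.15 to 0.38 in the resident genes. Across all genes the median of that gap was -0.03. The sets overlapped, since the pan-myeloid Maf had a gap of 0.35 and was highest on replicate 1, while Cd163 had a gap of 0.38. Relative to the control mean, replicates 1 and 3 were also close in the pan-myeloid Cx3cr1 (1.21 and 1.32), Siglec1 (0.92 and 1.09) and Stab1 (0.82 and 1.03). Replicate 2 of these 3 genes was lower, at -0.03, 0.33 and 0.03. Timd4, too low to be tested, had a gap of -0.51. The difference between the sets is a description of 3 arrays and was not tested.

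**Figure D2:**
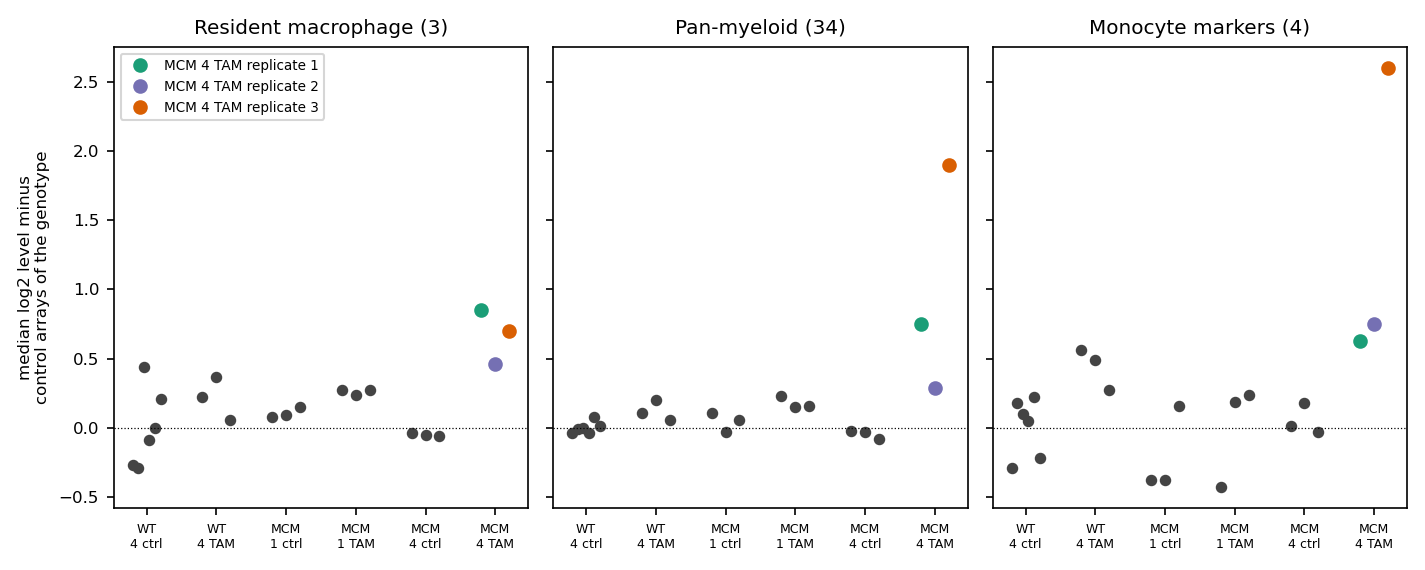
Median log2 level of the 3 tested resident genes, the 34 tested pan-myeloid genes and the 4 tested monocyte markers on each of the 21 arrays (points), minus the 6 control arrays of the same genotype (y axis, log2 units), by group (x axis; WT wild type, MCM MerCreMer, ctrl control, TAM tamoxifen). On the MerCreMer 4 tamoxifen arrays the resident median runs from 0.46 to 0.85, the pan-myeloid median from 0.29 to 1.90 and the monocyte median from 0.63 to 2.60. The 4 monocyte markers are Nr4a1, Vcan, Thbs1 and Fn1, which the heart's stromal cells express too.

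Without replicate 3 the changes of Lyve1 and Folr2 hardly moved, while most pan-myeloid changes shrank. The change of Lyve1 was 0.98 without it and that of Folr2 0.68, and both passed the test (adjusted p = 0.00207 and 0.00875). Cd163 was at 0.52 instead of 0.61 and no longer passed (adjusted p = 0.0886). The pan-myeloid Maf was at 0.29 instead of 0.34 and no longer passed either (adjusted p = 0.074). Among the pan-myeloid genes Cd68 was at 1.10 instead of 1.62 and Itgam at 0.95 instead of 1.57, and both still passed. Ctss was at 0.40 instead of 1.17, and Mpeg1 at -0.10 instead of 0.72. In all, 28 genes passed without replicate 3, and the 6 that were lost were Cd163, Cd52, Cx3cr1, Maf, Ptprc and Stab1. Without replicate 2 all 37 passed, and without replicate 3 of the MerCreMer 4 controls 23 passed.

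The transcription factors Spi1 and Maf and the receptors Csf1r and Cx3cr1, grouped here, all rose, with a median change of 0.80. Spi1, which encodes PU.1, was at 4.71, 5.16 and 5.04 on the controls and at 5.64, 5.41 and 6.58 after tamoxifen, with no overlap and a change of 0.91 ± 0.199 (adjusted p = 0.00369). Csf1r, the receptor for CSF1 and IL-34, was at 7.17, 7.04 and 7.08 on the controls and at 7.90, 7.30 and 8.36 after tamoxifen (0.76 ± 0.17, adjusted p = 0.00432). Cx3cr1, the fractalkine receptor, was at 5.21, 5.55 and 5.31 on the controls and at 6.57, 5.32 and 6.68 after tamoxifen. It rose by 0.84 ± 0.243 (adjusted p = 0.0201), but replicate 2 lay among the controls, and replicates 1 and 3 were nearly equal. The transcription factor Maf had the smallest change that passed, 0.34. The ligands of these receptors are made by other cells. Csf1 rose by 0.52 (adjusted p = 0.00285), Cx3cl1 rose by 0.48 (adjusted p = 0.0278), and Il34 was at -0.23 (adjusted p = 0.114).

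The receptors for the Fc part of antibodies and their signalling adaptors all rose, 5 of 5, with a median of 0.97. Fcer1g, the signalling chain shared by several Fc receptors, was at 6.78, 6.65 and 6.60 on the controls and at 7.61, 7.26 and 9.09 after tamoxifen, which put all 3 arrays above the other 18 arrays (1.31 ± 0.273, adjusted p = 0.00263). Fcgr1, the high-affinity receptor, was at 5.01, 4.80 and 4.75 on the controls and at 5.69, 5.0 and 7.24 after tamoxifen. Its replicate 2 overlapped the controls, and the change was 1.12 ± 0.329 (adjusted p = 0.0209). Tyrobp, an adaptor of activating receptors also called DAP12, was at 5.93, 5.56 and 5.61 on the controls and at 6.44, 5.99 and 7.60 after tamoxifen (0.97 ± 0.252, adjusted p = 0.0107). Fcgr2b and Fcgr3 rose by 0.88 and 0.91. These related receptors share sequence, and how far probes of each read the other was not tested.

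Of the 5 scavenger and pattern receptors tested 4 rose, Cd14 among them, and the median change was 0.78. Mrc1, the mannose receptor, was at 6.72, 6.61 and 6.66 on the controls and at 7.99, 7.20 and 8.46 after tamoxifen (1.22 ± 0.199, adjusted p = 0.000384). Cd14, the coreceptor for bacterial lipopolysaccharide, was at 4.27, 4.58 and 4.63 on the controls and at 5.34, 5.12 and 6.34 after tamoxifen, above all 18 other arrays. It could be tested only because these 3 arrays were above 5, so its fitted change of 1.11 is given as a description. Siglec1, the sialic acid receptor of macrophages, was at 5.13, 5.15 and 4.97 on the controls and at 6.0, 5.41 and 6.17 after tamoxifen (0.78 ± 0.16, adjusted p = 0.00237). As with Cx3cr1, replicates 1 and 3 of Siglec1 were close and replicate 2 was lower. Stab1, a scavenger receptor, rose by 0.63, although its replicate 2, at 7.46, lay within the controls. The class A scavenger receptor Msr1, not tested in the main fit, was at 4.00, 3.86 and 3.85 on the controls and at 5.23, 4.61 and 6.51 after tamoxifen. All 3 Msr1 arrays were above the other 18, and a fit without the filter gave 1.54 (adjusted p = 0.00248). Clec7a, the receptor for fungal glucans, was under 5 on every array, and that fit gave -0.06 (adjusted p = 0.889).

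All 7 leukocyte surface genes tested rose, with a median of 1.26, and none of them overlapped the MerCreMer 4 controls. Ms4a6c, a tetraspanning membrane protein of the MS4A family, was at 4.98, 5.06 and 4.74 on the controls and at 5.98, 5.66 and 7.91 after tamoxifen (1.59 ± 0.366, adjusted p = 0.0052). Itgam and Itgb2 encode the chains of the complement receptor CD11b/CD18. Itgam was at 5.09, 5.34 and 5.20 on the controls and at 6.52, 5.79 and 8.04 after tamoxifen (1.57 ± 0.32, adjusted p = 0.00222). Itgb2 was at 4.80, 4.88 and 4.93 on the controls and at 5.97, 5.38 and 7.28 after tamoxifen (1.34 ± 0.279, adjusted p = 0.00262). For each of these 3 genes all tamoxifen arrays lay above the other 18 arrays, with replicate 3 the highest and replicate 2 the lowest. Cd53, Cd52, Adgre1 (the F4/80 antigen) and Ptprc (CD45) rose by 1.26, 1.11, 1.02 and 0.82. Without the filter the untested Cd84 gave 1.00 (adjusted p = 0.0241) and Ms4a7 0.77 (adjusted p = 0.0649).

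Of the 5 genes of the lysosome and of digestion, 4 rose, and the median was 1.01. Cd68, a lysosomal membrane glycoprotein, was at 6.31, 6.33 and 6.13 on the controls and at 7.57, 7.16 and 8.91 after tamoxifen (1.62 ± 0.265, adjusted p = 0.000386). It had the largest change of the 37 genes, and its lowest tamoxifen array was above all 18 others, of which the highest was 6.80. Ctss, the protease cathepsin S, was at 7.04, 6.86 and 7.11 on the controls and at 7.56, 7.25 and 9.70 after tamoxifen (1.17 ± 0.367, adjusted p = 0.0294). Laptm5, a lysosomal membrane protein of blood cells, was at 7.09, 7.29 and 7.16 on the controls and at 7.97, 7.39 and 9.22 after tamoxifen (1.01 ± 0.266, adjusted p = 0.0116). Without replicate 3 the changes of Ctss and Laptm5 were 0.40 and 0.49. Lyz2, lysozyme, rose by 0.98, and cross-reading with its close copy Lyz1 was not tested. Mpeg1 was at 5.16, 5.65 and 5.41 on the controls and at 5.66, 5.0 and 7.72 after tamoxifen, so that replicate 2 was below every control and only replicate 3 stood clear.

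Among the oxidase and Rac genes 2 of 3 rose. Ncf1, the cytosolic subunit p47phox, was at 5.31, 5.26 and 5.20 on the controls and at 5.71, 5.52 and 6.91 after tamoxifen (0.79 ± 0.212, adjusted p = 0.0131). Rac2, the GTPase of blood cells that activates the oxidase, was at 6.0, 5.73 and 5.97 on the controls and at 6.26, 6.22 and 7.11 after tamoxifen (0.63 ± 0.16, adjusted p = 0.00945). Cybb, the catalytic subunit, was at 6.21, 6.75 and 6.29 on the controls and at 6.83, 6.52 and 8.08 after tamoxifen, and overlapped. Ncf4, a further cytosolic subunit, reached 5 only on replicate 3 of the tamoxifen group, at 6.22, and gave 0.64 without the filter (adjusted p = 0.27).

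The 3 actin-regulating and signalling genes tested all rose, with a median of 1.31. Lcp1, the actin-bundling protein L-plastin, was at 6.64, 6.65 and 6.51 on the controls and at 7.93, 7.36 and 9.08 after tamoxifen (1.52 ± 0.256, adjusted p = 0.000474). Coro1a, coronin 1A, was at 5.64, 6.01 and 5.90 on the controls and at 6.84, 6.39 and 8.24 after tamoxifen (1.31 ± 0.272, adjusted p = 0.00255). Both were above the other 18 arrays on all 3 tamoxifen arrays. Plek, the protein kinase C substrate pleckstrin, was at 5.33, 5.09 and 5.44 on the controls and at 5.90, 5.57 and 7.83 after tamoxifen (1.15 ± 0.346, adjusted p = 0.024). Aif1, the calcium-binding protein IBA1, gave 0.57 without the filter (adjusted p = 0.0325). Both genes for secreted proteins rose. Pf4, a chemokine of platelets that resident macrophages also express, was at 5.50, 5.47 and 5.22 on the controls and at 6.79, 5.87 and 7.13 after tamoxifen (1.20 ± 0.204, adjusted p = 0.000507). F13a1, the A subunit of clotting factor XIII, was at 7.04, 6.87 and 6.88 on the controls and at 8.29, 7.76 and 8.87 after tamoxifen (1.38 ± 0.225, adjusted p = 0.000387). Without replicate 3 the changes of Pf4 and F13a1 were 0.91 and 1.08, and both still passed (adjusted p = 0.00146 and 0.00113).

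**Figure D3:**
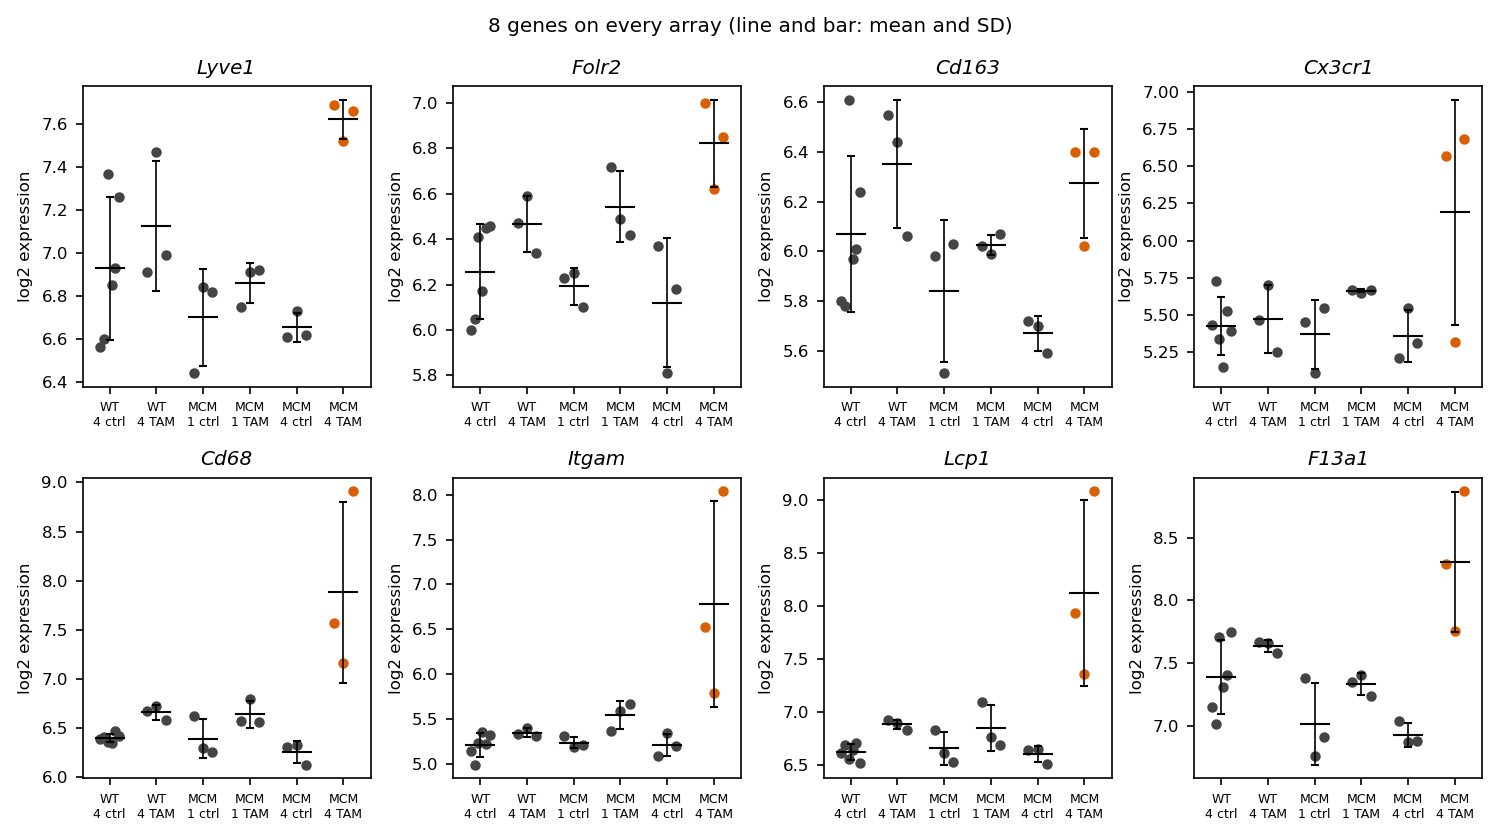
Log2 expression (y axis) of 8 of the genes on every array, by group (x axis; WT wild type, MCM MerCreMer, ctrl control, TAM tamoxifen), with the group mean (line) and SD (bar); axes do not start at 0. The 3 MerCreMer 4 tamoxifen points lie together for Lyve1, at 7.52 to 7.69, and far apart for Cd68, at 7.16 to 8.91, and Cx3cr1 has replicate 2 among the controls at 5.32.

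In 13 of the 37 genes all 3 tamoxifen arrays lay above the other 18 arrays, which held for 7.56% of all genes. They were Lyve1, Spi1, Fcer1g, Cd14, Itgam, Itgb2, Cd53, Ms4a6c, Cd68, Rac2, Coro1a, Lcp1 and F13a1. Of these, Cd14 was in the test only through those arrays. In 24 of the 37 genes replicate 2 was less than 0.5 above the control mean, against 5 genes on replicate 1 and 2 on replicate 3.

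Promoters are shown for the 3 genes with the largest change in this comparison, Cd68, Ms4a6c and Itgam, to set them beside that of Folr2. Each is the 250 bases before a start listed by RefSeq in build GRCm38.p6, except that the last 15 are left out for Ms4a6c because they lie within the gene's annotated span, which leaves 235. Capitals mark the 6-base form GAGGAA, which PU.1 is known to bind, or TTCCTC where it lies on the other strand. They are Cd68 at chr11:69666171-69666420 (minus strand), Ms4a6c at chr19:11469118-11469352 (plus strand) and Itgam at chr7:128062390-128062639 (plus strand).
Cd68: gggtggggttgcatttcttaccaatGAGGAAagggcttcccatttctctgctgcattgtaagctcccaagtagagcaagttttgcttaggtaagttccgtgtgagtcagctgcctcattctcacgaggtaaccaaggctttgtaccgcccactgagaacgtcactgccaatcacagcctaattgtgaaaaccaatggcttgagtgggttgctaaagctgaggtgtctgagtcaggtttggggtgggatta
Ms4a6c: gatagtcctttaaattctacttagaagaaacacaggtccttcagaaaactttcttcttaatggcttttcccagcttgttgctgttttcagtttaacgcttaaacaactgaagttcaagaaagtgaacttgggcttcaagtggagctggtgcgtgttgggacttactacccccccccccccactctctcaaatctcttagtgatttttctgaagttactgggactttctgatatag
Itgam: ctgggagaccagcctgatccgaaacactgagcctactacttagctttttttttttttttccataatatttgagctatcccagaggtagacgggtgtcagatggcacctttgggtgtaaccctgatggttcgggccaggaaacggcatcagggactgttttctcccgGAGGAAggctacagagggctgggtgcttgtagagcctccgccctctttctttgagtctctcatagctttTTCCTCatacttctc
GAGGAA was found once in Cd68, on both strands in Itgam and not in Ms4a6c or Folr2. Of the 31 genes with a promoter in the table, 16 (51.6%) held it in at least 1 listed promoter, against 25.9% of all 27025 genes in the table. None of the 3 resident genes with a promoter held it. By promoter, the counts were 18 of 39 (46.2%) against 7639 of 32851 (23.3%). A match is a description of the letters and shows no binding. A missing match says only that these 6 letters are not in this window, and other forms of the motif may be.

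The next question was whether the same rise was seen after 1 injection or without the transgene. After 1 tamoxifen injection in MerCreMer hearts 0 of the 37 genes passed the limma test, as did 0.00878% of all genes, and 1 had an unadjusted p under 0.05 (Folr2, 0.35 ± 0.148). The changes were small and mostly above 0. Their median was 0.18, 32 of 37 were above 0 against 57.4% of all genes, and in 11 every tamoxifen array was above every control, which held for 6.88% of all genes. Folr2 read 6.23, 6.25 and 6.10 after 1 control injection and 6.72, 6.49 and 6.42 after 1 tamoxifen injection, with no overlap. Lyve1 read 6.44, 6.84 and 6.82 and then 6.75, 6.91 and 6.92, which overlapped. Cd68 read 6.62, 6.30 and 6.26 and then 6.57, 6.80 and 6.56, which overlapped as well.

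In wild-type hearts after 4 tamoxifen injections 0 of 37 genes passed the limma test, as did 0% of all genes, and 1 had an unadjusted p under 0.05 (Cd33, 0.24 ± 0.113). The median change was 0.11, and 33 of 37 were above 0 against 53.4% of all genes. In 3 genes, Cd68, Lcp1 and Plek, the 3 tamoxifen arrays lay above all 6 controls, which held for 1.73% of all genes. Cd68 was at 6.68, 6.73 and 6.58 after tamoxifen, and its controls had a lowest, median and highest value of 6.35, 6.40 and 6.47. The change was 0.26 with an adjusted p of 1. All 3 of these Cd68 levels were below the lowest MerCreMer 4 tamoxifen array, 7.16. Lyve1 was at 6.91, 7.47 and 6.99 after tamoxifen, and its controls at 6.56, 6.89 and 7.37, so the groups overlapped.

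**Figure D4:**
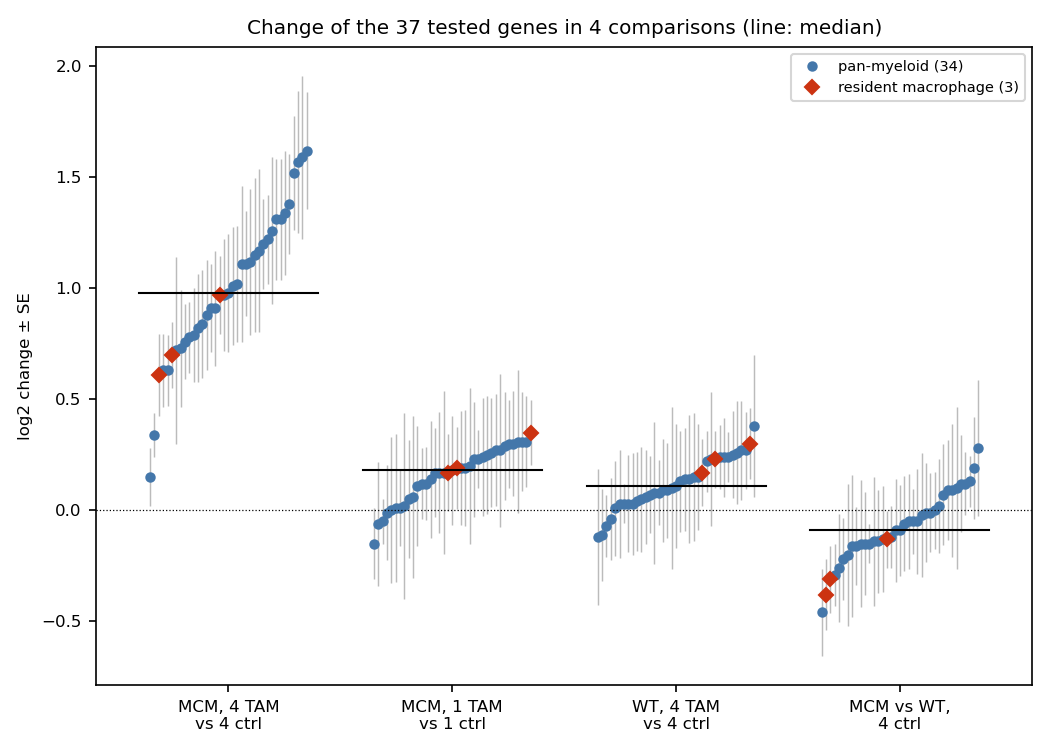
Log2 change ± SE (y axis) of each of the 37 tested genes, in order of size, in 4 comparisons (x axis); diamonds are the 3 resident genes, circles the 34 pan-myeloid genes and lines the medians. Medians are 0.98 for MerCreMer after 4 tamoxifen injections, 0.18 after 1, 0.11 in wild type and -0.09 for MerCreMer against wild type after control injections.

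The difference between genotypes was tested directly. The effect of 4 tamoxifen injections was larger in MerCreMer than in wild-type hearts for 11 of the 37 genes and smaller for 0, where 4.45% of all genes passed upwards and 3.53% downwards. The median difference was 0.89. Without Cd14, which passed the filter through the MerCreMer 4 tamoxifen arrays, 10 of 36 passed and the median was 0.88. The 11 were Lyve1, the only resident gene, with Cd14, Mrc1, Itgam, Itgb2, Cd68, Rac2, Coro1a, Lcp1, Pf4 and F13a1. The difference was 0.80 for Lyve1 (adjusted p = 0.039) and 1.36 for Cd68 (adjusted p = 0.0236). Folr2, at 0.48 (adjusted p = 0.138), and Cd163, at 0.31 (adjusted p = 0.465), did not pass. The count depended on single arrays. It was 33 without replicate 2 of the MerCreMer 4 tamoxifen group, and 0 to 2 without any 1 of the MerCreMer 4 controls. It was 0, 3 and 0 without each wild-type tamoxifen array in turn, and 3 to 9 without each wild-type control, with 3 without replicate 5 and 4 without replicate 6.

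The effect of 4 injections was also compared with that of 1 injection in MerCreMer hearts, 2 contrasts that share no array. It was larger for 4 of the 37 genes and smaller for 0, where 2.78% of all genes passed upwards and 3% downwards. These were Itgb2 (1.40, adjusted p = 0.0437), Cd68 (1.37, adjusted p = 0.0369), Rac2 (0.78, adjusted p = 0.0495) and Lcp1 (1.33, adjusted p = 0.0369). The median difference was 0.81, and Lyve1 was at 0.81 (adjusted p = 0.06). The count was 32 without replicate 2 of the MerCreMer 4 tamoxifen group, 8 without its replicate 1 and 6 without its replicate 3, and 0 without any 1 of the other 9 arrays compared.

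MerCreMer and wild-type hearts after control injections differed in 0 of the 37 genes by limma, where 0.676% of all genes passed, and 2 had an unadjusted p under 0.05. These were Cd163 (-0.38 ± 0.16, adjusted p = 0.263) and F13a1 (-0.46 ± 0.196, adjusted p = 0.274). The median was -0.09, and in 5 genes, Cd163, Maf, Itgb2, Cd68 and Ncf1, all MerCreMer controls were below all wild-type controls, which held for 4.05% of all genes. This contrast shares the MerCreMer 4 control arrays with the tamoxifen comparison. Between 4 and 1 control injections in MerCreMer hearts, and between males and females, 0 of the 37 genes passed by limma and 0 had an unadjusted p under 0.05. Over all genes 0% and 0.29% passed in those contrasts.

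Other genes of the myeloid system rose as well after 4 tamoxifen injections in MerCreMer hearts. Of a list of 70, 64 were on the array and 37 were tested, of which 24 rose and 0 fell, with a median of 0.60. Over all genes tested, 13.9% rose and 9.41% fell. Dock2, on this list, passed the filter largely through this group. It reached 5 only there, at 5.07 and 6.29, and on a wild-type tamoxifen array at 5.07, so its change is no support. The smallest adjusted p values were those of Plcg2, a phospholipase that signals below Fc receptors (0.77, adjusted p = 5.78e-06), Slamf9, a receptor of the SLAM family (0.92, adjusted p = 0.000257), and C5ar1, the receptor for complement C5a (1.42, adjusted p = 0.000808).

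Of 10 markers of blood monocytes on the array 4 were tested and 3 rose, Nr4a1 by 1.53, Vcan by 1.13 and Thbs1 by 1.62, while Fn1 was at 0.82 (adjusted p = 0.173). After 4 tamoxifen injections Vcan was at 7.17, 7.07 and 9.08, Thbs1 at 7.21, 7.54 and 10.21 and Fn1 at 7.68, 7.73 and 10.34, each highest on replicate 3. Their means on the MerCreMer 4 controls were 6.64, 6.70 and 7.76. Nr4a1 was at 9.02, 8.07 and 8.10, highest on replicate 1. The heart's stromal cells express these 4 genes too. The summed level of the list, on the log2 scale, was 9.80 to 11.84 on the MerCreMer 4 tamoxifen arrays and 8.76 to 9.45 on the control arrays of all groups. Most of that sum came from these 4 genes. Ccr2, which defines inflammatory monocytes, was too low to be tested and was picked after its values were seen. It was at 3.90, 3.67 and 7.35 on the 3 tamoxifen arrays and at 3.51, 3.59 and 3.41 on the MerCreMer 4 controls. Replicate 3, the array with the highest pan-myeloid levels, was thus the only one of the 21 with Ccr2 above 5. Chil3, Plac8, Il1b, Itga4 and Itgal were too low to be tested as well. After tamoxifen Chil3 read 2.12, 1.77 and 5.81, Plac8 2.02, 2.29 and 3.95, and Il1b 3.66, 4.03 and 5.37. Itga4 read 4.85, 4.79 and 5.86, and Itgal 4.17, 4.47 and 4.96. The MerCreMer 4 control means of these genes were 2.10, 2.44, 3.68, 4.68 and 4.37 in that order. The part of monocytes in the pan-myeloid changes was not tested.

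Markers of other blood cells were mostly near the floor. Of 13 neutrophil markers, 12, among them S100a8 and Ly6g, were under 5 on all 21 arrays, and only Lcn2, which many stressed cells also make, was tested (2.40, adjusted p = 0.00279). Lcn2 was at 8.22, 5.02 and 8.18 on the 3 tamoxifen arrays, so replicates 1 and 3 were equally high. The summed neutrophil level was 7.41 to 8.84 on these arrays and 7.22 to 7.54 on the control arrays of all groups. Most of the sum on replicates 1 and 3 was Lcn2, and the 7.41 was that of replicate 2, where Lcn2 was low. All 6 B cell markers, 9 of 11 T and NK cell markers, 7 of 9 dendritic cell markers and 5 of 6 mast cell markers were under 5 throughout. The 3 platelet markers tested did not pass, with Ppbp at 0.37, Tubb1 at 0.09 and Gfi1b at -0.12. The summed platelet level was 7.28 to 7.54 after 4 tamoxifen injections and 7.29 to 7.46 on the MerCreMer 4 controls, whereas Pf4 rose. Ppbp was uneven, at 5.74, 4.19 and 5.29 after tamoxifen and at 4.75, 4.63 and 4.72 on the MerCreMer 4 controls. Its replicate 2 was the lowest, as for Pf4, and the wild-type controls ran from 4.21 to 5.95.

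Lyve1, Mrc1 and Stab1 are also expressed by lymphatic or other endothelium. Of the 5 lymphatic markers Pdpn rose by 0.95, Prox1 fell by 0.63, and Flt4 (-0.05), Reln (-0.13) and Mmrn1 (0.13) did not pass. Their summed level was 8.83 to 8.98 after 4 tamoxifen injections and 8.88 to 9.10 on the MerCreMer 4 controls. On those controls Prox1 had a mean of 8.27, the highest of the 5, and made up most of the sum. Whether Prox1 read lymphatic vessels in whole ventricle was not tested. Of 10 blood endothelial markers 0 rose and 3 fell, Erg, Cdh5 and Emcn, with a list median of -0.27. Of 12 cardiomyocyte markers 3 fell, Ryr2 by 1.34, Pln by 0.77 and Ttn by 0.43, with a list median of -0.09. Of 10 fibroblast markers Gsn fell by 0.47 and 0 rose. The collagen genes Col1a1 (0.90, adjusted p = 0.0676), Col1a2 (0.76, adjusted p = 0.106) and Col3a1 (0.89, adjusted p = 0.0675) did not pass, and all 3 were far higher on replicate 3. Col1a1 was at 9.33, 9.19 and 11.20 after tamoxifen and at 9.03, 9.02 and 8.95 on the controls. The summed level of the fibroblast list was 12.66 to 13.24 on the tamoxifen arrays, highest on replicate 3, and 12.61 to 12.77 on the MerCreMer 4 controls. The cardiomyocyte list was lowest on replicate 3, with a median of -0.25 against the MerCreMer controls, and at -0.07 and 0.02 on replicates 1 and 2. Of 6 atrial markers tested 0 rose and 1 fell, Myl7 by 3.77 (adjusted p = 0.0211), while Myl4 was at -2.11 (adjusted p = 0.0759). The summed level of the atrial list, most of it Nppa, was 10.97 to 12.69 on the tamoxifen arrays and 11.39 to 11.71 on the MerCreMer 4 controls. The part of these shifts in the myeloid changes was not tested.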

How the data were processed

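The deposited table held log2 expression levels of 34760 probe sets on 21 arrays. They come from RMA, of no stated version, per the submitters' processing notes. RMA corrects background, quantile normalises the arrays and summarises probes, and quantile normalisation removes a shift shared by most genes. Array medians were 4.57 to 4.72. Values were used as deposited. No source used here gives probe-level signals or scan dates, so no batch could be checked.

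The platform annotation gave 1 gene for 21640 probe sets, several for 1321 and none for 11799. Only single-gene probe sets were used, and of several for a gene the one with the highest mean was kept, which left 19937 genes. Of their Entrez identifiers 99.6% matched the RefSeq table of GRCm38.p6, and 0 symbols changed. Genes with a log2 value of 5 or more on at least 3 arrays, 11384 in all, were tested.

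With limma 3.58.1 in R 4.3.3, lmFit and eBayes were run on a model of 6 group means and sex over the 21 arrays (14 residual and 3.98 prior degrees of freedom), after a test on simulated data. Benjamini-Hochberg adjustment ran over all genes tested, with a threshold of 0.05. The 8 contrasts were tamoxifen against control in 3 settings, the genotypes after control injections, 2 differences of effects, 4 against 1 control injections, and the sexes. Precision is limited by how many arrays each group holds.

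The members, role groups and other lists were chosen with earlier results of these data known. Named genes were the resident genes, up to 3 per role with the largest change after 4 tamoxifen injections in MerCreMer mice, members called in another contrast, the ligands Csf1, Il34 and Cx3cl1, and up to 3 genes of each other list with the smallest adjusted p; genes named outside this rule were named after their values were seen. Summed levels of a list are log2 of the sum of unlogged levels. Promoters are from RefSeq, and protein sequences were not used here.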

Additional observations from a re-analysis of the deposited data

Results flagged for a closer look

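In the wild-type control group, 2 of the 44 genes had an array far from the other 5. The highest Fcgr3 array, at 5.45, and the lowest Plek array, at 4.91, stood apart by Dixon's criterion. Chance alone flags about 1 in 20 such groups.

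The effect of 4 tamoxifen injections differed between MerCreMer and wild-type hearts in 11 genes by limma's test of the difference. Of all genes tested, 4.45% passed upwards and 3.53% downwards. On the log2 scale the difference was 0.80 for Lyve1, 1.22 for Cd14, 0.96 for Mrc1, 1.46 for Itgam, 1.31 for Itgb2 and 1.36 for Cd68. It was 0.70 for Rac2, 1.26 for Coro1a, 1.25 for Lcp1, 0.96 for Pf4 and 1.12 for F13a1. Cd14 passed the filter on low values through the MerCreMer 4 tamoxifen arrays, so its difference is a description. Adjusted p values ran from 0.0236 to 0.0492. The 3 MerCreMer tamoxifen arrays were all above the 3 controls in each of these 11 genes, which held for 16.6% of all genes. The test that picked the 11 used the same arrays, so this is no further support.

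The effect in MerCreMer hearts differed between 4 injections and 1 in 4 genes by limma. The differences were 1.40 for Itgb2, 1.37 for Cd68, 0.78 for Rac2 and 1.33 for Lcp1, with adjusted p values from 0.0369 to 0.0495. Of all genes tested, 2.78% passed upwards and 3% downwards.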

How the results depend on the processing

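After 4 tamoxifen injections in MerCreMer mice 34 genes rose in the fit reported. That number was 15 with array weights, 0 with only the arrays compared, 13 with female arrays only and 20 (of 20 tested) with a filter at log2 6. It was 29 with group variance weights and 23 to 37 with 1 array left out. The number that differed between the genotypes' effects, reported as 11, was 6, 1, 0 and 8 in the first 4 of these settings. It was 13 with group variance weights (10 of the 11, with Fcer1g, Ncf1 and Spi1). It was 5 with no filter (4 of the 11 and Msr1) and 0 to 33 with 1 array left out. The number that differed between 4 injections and 1, reported as 4, was 3, 1, 0 and 4, then 12 with group variance weights (the 4 and 8 others), 0 with no filter and 0 to 32 with 1 array left out. These were not always the same genes: with only the arrays compared the 1 gene was Lyve1, which is not among the 4. With array weights 2 genes (F13a1 and Siglec1) were lower in MerCreMer than in wild-type controls, against 0. Same-numbered replicates were not treated as pairs. The correlations of their deviations ran from -0.2 to 0.28. With so few arrays per group these values cannot decide whether same-numbered arrays belonged together. With the replicate number as a block 28, 0 and 0 genes passed in the 3 contrasts. Replicates 4 to 6 occur only among the wild-type controls, so the block fits those arrays exactly and they add nothing to the contrasts. They are the females of that group, and replicate 1 was the male in every group of 3. The 0 for the genotypes' effects thus rests on fewer wild-type controls. No called gene changed sign in any setting. Over all genes, 2654 passed after 4 tamoxifen injections in MerCreMer mice, against 1490 with array weights, 1011 with group variance weights, 18 with only the arrays compared, 1502 with female arrays only and 1655 with the block. The MerCreMer 4 tamoxifen group held 3 arrays, and replicate 3 was far above the others for most pan-myeloid genes. The size of the pan-myeloid changes is thus poorly fixed.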
